A study of Mus musculus with 38 samples.

Results

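The MHC class II antigen presentation genes described here were *H2-Aa*, *H2-Ab1*, *H2-Eb1*, *H2-DMa*, *Cd74* and *Ciita*. They were found by symbol among the 19938 genes with a single-symbol probe set, and each of the 6 had 1 such probe set. *H2-Aa*, *H2-Ab1*, *H2-Eb1* and *H2-DMa* lie on chromosome 17, *Cd74* on chromosome 18 and *Ciita* on chromosome 16. All thyroids came from FVB/N mice, 1 array a mouse, and expression is given as log2 signal. Transgenic mice carried a tagged human *BRAF*V600E cDNA driven by the bovine thyroglobulin promoter, which is active in follicular cells. RNA and histology came from different pieces of the gland, so that the lesion named for a mouse was not seen in the tissue that was measured. *BRAF*(+) means that *BRAF*V600E RNA was found. The groups were 10 papillary carcinomas (PTC, 6 to 21 months of age) and 10 borderline lesions (BL, 4 to 21 months), all *BRAF*(+), 4 *BRAF*(+) benign hyperplastic lesions (BHL, 4 to 11 months), 5 *BRAF*(+) asymptomatic thyroids (AT, 7 to 11 months), 4 *BRAF*(-) BHL (6 to 24 months) and 5 *BRAF*(-) AT (4 to 12 months). The *BRAF*(-) mice had no transgene, except 1 BHL mouse of line tg1 that was genotyped as transgenic but lacked its RNA, and the *BRAF*(+) mice came from lines tg2 and tg3. By the paper, most *BRAF*(+) AT and BHL mice were of line tg3 and most *BRAF*(-) mice of line tg2. Line was in no model, so its part in the differences by *BRAF* status was not tested. There were 29 females and 9 males, and single mice are called by their label names (M_946).

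MHC class II molecules are pairs of an alpha and a beta chain that carry peptides from the endosome to the cell surface and show them to CD4+ T cells. Dendritic cells, B cells and macrophages make them constantly, and other cells, thyroid follicular cells among them, can be made to do so by interferon gamma. *H2-Aa* and *H2-Ab1* encode the alpha and beta chains of the mouse A molecule, and *H2-Eb1* the beta chain of the E molecule. *Cd74* encodes the invariant chain, which escorts new class II pairs and blocks their groove. *H2-DMa* encodes a chain of the DM molecule, which takes the last piece of the invariant chain out of the groove. *Ciita* encodes the coactivator that turns all of these genes on, and binds no DNA itself but is held at their promoters by proteins on the X and Y boxes.

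RefSeq promoter sequence of build GRCm38.p6 was at hand for 3 of the 6 genes (*H2-Aa*, *H2-Eb1* and *H2-DMa*). It is shown for *H2-Aa* and *H2-Eb1*, because these hold the letters of the boxes through which *Ciita* is known to act. The reference strain is not FVB/N. The letters searched, on both strands of the 250 bases before the start site, were CTGATTGG for the Y box, whose opposite strand holds the CCAAT pentamer, and AGNNACNGA for the core of the X box. The sequences run 5′ to 3′ on the strand of the gene, and capitals mark the matches.
*H2-Aa*, chr17:34287824-34288073, minus strand: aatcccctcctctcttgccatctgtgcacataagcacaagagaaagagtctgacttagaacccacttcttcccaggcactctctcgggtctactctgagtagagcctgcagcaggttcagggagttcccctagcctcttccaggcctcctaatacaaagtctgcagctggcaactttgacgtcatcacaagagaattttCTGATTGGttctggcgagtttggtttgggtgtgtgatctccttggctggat
*H2-Eb1*, chr17:34305617-34305866, plus strand: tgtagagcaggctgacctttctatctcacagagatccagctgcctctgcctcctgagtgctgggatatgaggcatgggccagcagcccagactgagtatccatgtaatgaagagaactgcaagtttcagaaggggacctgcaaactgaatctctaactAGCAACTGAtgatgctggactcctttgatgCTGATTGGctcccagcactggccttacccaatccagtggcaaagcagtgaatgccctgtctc
The Y box letters began at -51 from the start site in *H2-Aa* and at -62 in *H2-Eb1*. The X core letters began at -92 in *H2-Eb1*, 30 bases before its Y box, and had no match in the *H2-Aa* window. Neither set of letters was in the windows of the 2 *H2-DMa* entries, chr17:34122582-34122831 and chr17:34125268-34125517. Both windows lie inside the listed *H2-DMa* locus, 34119693 to 34139101, and the bases before the start of that locus were not searched. A lack of the boxes in *H2-DMa* is thus not shown. Of 32851 promoter entries, 3.83% held the Y box letters, 14.7% the X core letters and 0.542% both. A match is a match of letters, and binding was not measured.

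Across the whole table, array medians lay between 6.00 and 6.15 and arrays correlated at 0.944 to 0.991. *Tg*, the precursor of thyroid hormone, lay at 13.3 to 13.74 in all thyroids. The *BRAF*(-) BHL of M_946 stood apart in thymus and T cell markers. Its 10 thymus markers averaged 7.5, against 4.63 to 5.20 in the other 37 mice, and its T cell markers averaged 9.08, against 5.16 to 6.82. Class II signals of this mouse were the highest of its group for all 6 genes. Results that rest on it are given with and without it.

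By group means, the class II genes were lowest in *BRAF*(-) thyroids and highest in *BRAF*(+) AT. For *H2-Ab1* the group means were 9.41 ± 0.46 in PTC and 9.62 ± 0.43 in BL (SD, n = 10 each), 9.25 ± 0.40 in *BRAF*(+) BHL (n = 4), 9.99 ± 0.70 in *BRAF*(+) AT (n = 5), 8.83 ± 0.99 in *BRAF*(-) BHL (n = 4) and 8.61 ± 0.85 in *BRAF*(-) AT (n = 5). The order of the means from the top was *BRAF*(+) AT, BL, PTC, *BRAF*(+) BHL, *BRAF*(-) BHL and *BRAF*(-) AT for *H2-Aa*, *H2-Ab1*, *H2-Eb1*, *H2-DMa* and *Ciita*. For *Cd74* the order was the same except that *BRAF*(+) BHL came before PTC. No 2 neighbours in any of these orders differed beyond their spread (lowest adjusted p = 0.283, for *Cd74* in PTC over *BRAF*(-) BHL, limma without the filter on flat probe sets), so that the steps within the order are not settled by these mice.

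**Figure D1:**
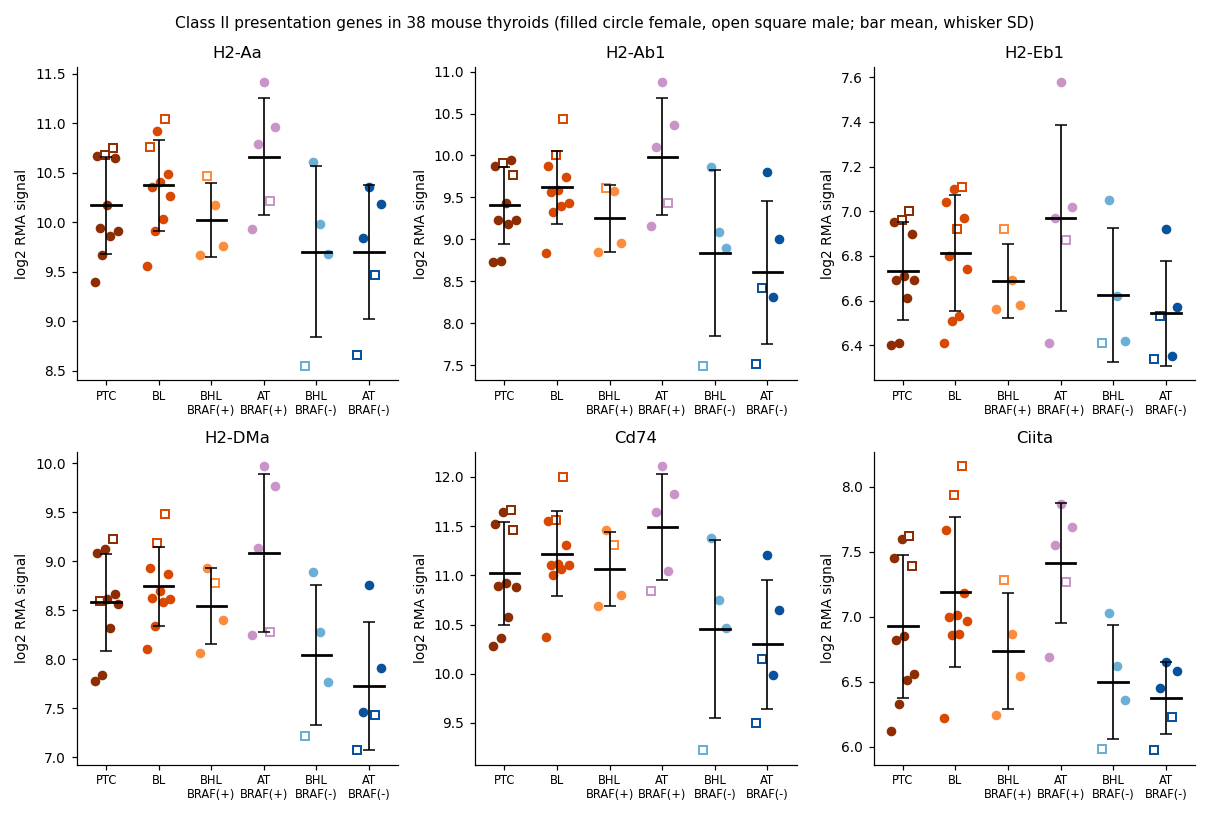
Log2 RMA signal of the 6 class II genes (y axis) in each of 38 mice, by lesion and BRAF status (x axis). Filled circles are females, open squares males, the bar is the group mean and the whisker its SD. The lowest BRAF(-) thyroids, at 7.49 and 7.51 for H2-Ab1, are those of males.

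In the 18 non-malignant thyroids, *BRAF*(+) glands were compared with *BRAF*(-) glands in a limma model with lesion type and sex. Flat probe sets, those with under 20% of mice beyond 1.5-fold of the median, were left out. The remaining 4388 were tested, and an adjusted p under 0.05 was called. *H2-Eb1* did not pass this filter. Of the other 5 class II genes, 4 were called higher in *BRAF*(+) thyroids (*H2-Ab1*, *H2-DMa*, *Cd74* and *Ciita*), where 11.8% of all probe sets tested were called higher. The median log2 fold change of the 6 genes was 0.76, against 0.06 over all probe sets tested. In bulk tissue, a change in the number of cells that carry these RNAs and a change of RNA per cell cannot be told apart.

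*Cd74*, the invariant chain, had 10.69, 10.80, 11.31 and 11.46 in *BRAF*(+) BHL and 10.84, 11.04, 11.64, 11.83 and 12.11 in *BRAF*(+) AT, against 9.22, 10.46, 10.75 and 11.38 in *BRAF*(-) BHL and 9.50, 9.99, 10.15, 10.65 and 11.21 in *BRAF*(-) AT. All 9 *BRAF*(+) values lay above the median of the *BRAF*(-) mice, and 4 lay above every one of them. The share of all probe sets with such counts was not counted, here and for *H2-DMa*, *H2-Ab1* and *H2-Aa* below. *Cd74* averaged 11.3 ± 0.50 in *BRAF*(+) and 10.37 ± 0.73 in *BRAF*(-) thyroids (SD, n = 9 each), with a fitted log2 fold change of 0.85 (SE 0.25, 1.8-fold, adjusted p = 0.0217).

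*H2-DMa*, the peptide exchange chain, had 8.06, 8.40, 8.78 and 8.93 in *BRAF*(+) BHL and 8.25, 8.28, 9.13, 9.77 and 9.97 in *BRAF*(+) AT, against 7.22, 7.77, 8.28 and 8.89 in *BRAF*(-) BHL and 7.07, 7.43, 7.46, 7.91 and 8.76 in *BRAF*(-) AT. Again all 9 *BRAF*(+) values were above the *BRAF*(-) median and 6 of the 9 *BRAF*(-) values were below every *BRAF*(+) value. The log2 fold change was 0.90 (SE 0.28, 1.86-fold, adjusted p = 0.0259), the largest among the 6 genes.

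*H2-Ab1*, the beta chain of A, had 8.85, 8.96, 9.58 and 9.61 in *BRAF*(+) BHL and 9.16, 9.43, 10.10, 10.36 and 10.88 in *BRAF*(+) AT, against 7.49, 8.90, 9.09 and 9.86 in *BRAF*(-) BHL and 7.51, 8.31, 8.42, 9.01 and 9.80 in *BRAF*(-) AT. The groups overlapped, and 3 of the 9 *BRAF*(+) values exceeded every *BRAF*(-) value. The log2 fold change was 0.85 (SE 0.30, 1.81-fold), with an adjusted p of 0.0483. Its partner *H2-Aa* had 9.67, 9.76, 10.18 and 10.47 in *BRAF*(+) BHL and 9.93, 10.22, 10.79, 10.96 and 11.42 in *BRAF*(+) AT, against 8.55, 9.68, 9.98 and 10.61 in *BRAF*(-) BHL and 8.66, 9.47, 9.84, 10.19 and 10.36 in *BRAF*(-) AT. Here too the groups overlapped, with 3 *BRAF*(+) values above every *BRAF*(-) value, and the log2 fold change of 0.59 (SE 0.26) did not pass (adjusted p = 0.12).

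*Ciita*, the coactivator, had 6.24, 6.54, 6.87 and 7.28 in *BRAF*(+) BHL, against 5.98, 6.36, 6.62 and 7.03 in *BRAF*(-) BHL. It had 6.69, 7.27, 7.55, 7.69 and 7.87 in *BRAF*(+) AT, against 5.97, 6.23, 6.45, 6.58 and 6.65 in *BRAF*(-) AT. The BHL values were interleaved, whereas the AT values did not overlap, as held for 4.4% of the probe sets tested. Over both lesion types the log2 fold change was 0.66 (SE 0.22, 1.58-fold, adjusted p = 0.0432). *H2-Eb1*, the E beta chain, averaged 6.85 ± 0.35 in *BRAF*(+) and 6.58 ± 0.25 in *BRAF*(-) thyroids (SD, n = 9 each). It ranged from 6.41 to 7.58 in *BRAF*(+) thyroids and from 6.34 to 7.05 in *BRAF*(-) thyroids, and its log2 difference was 0.25 (SE 0.14, adjusted p = 0.409 over all 35556 probe sets).

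The count of 4 was not stable. Without the filter only *Cd74* was called (adjusted p = 0.0482), and in females alone none was, with log2 fold changes of 0.16 to 0.73 (adjusted p 0.194 to 0.667). The count fell to 2 without any 1 of M_523, M_524, M_701, M_764, M_771, M_943, M_945 or M_957, to 1 without M_930, M_948, M_956 or M_1003, and to 0 without M_958, the *BRAF*(+) BHL male, while without M_946 it was 4. The log2 fold changes stayed above 0 for the 6 genes in each of these fits.

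By lesion type, none of the 5 tested class II genes was called in AT (2.73% of probe sets called higher) or in BHL (12.5% called higher). In AT the log2 fold changes were 1.22 for *H2-DMa* (SE 0.36, adjusted p = 0.0801), 1.21 for *H2-Ab1* (SE 0.40, adjusted p = 0.121), 1.04 for *Cd74* (SE 0.34, adjusted p = 0.114), 1.0 for *Ciita* (SE 0.28, adjusted p = 0.0642) and 0.82 for *H2-Aa* (SE 0.35, adjusted p = 0.259). Mouse M_779 was the lowest *BRAF*(+) AT in all 6 genes but *Cd74*, and without it the count in AT was 4. Mouse M_940 was the highest *BRAF*(-) AT in all 6 genes but *Ciita*, and without it the count was 1. With array weights 4 were called in AT, and with the muscle and adipocyte markers as covariates 5. The shares of all probe sets called in these fits were not counted. In BHL the log2 fold changes were lower, between 0.06 for *H2-Eb1* and 0.61 for *Cd74* (SE 0.37, adjusted p = 0.275). The difference of both effects, BHL minus AT, was -0.77 for *Ciita* (SE 0.42, adjusted p = 0.38) and -0.35 to -0.80 for the other genes. None was called, where 15 of the 4388 probe sets tested were called lower and 11 higher. A different effect of *BRAF* status in both lesion types was thus not shown for these genes.

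**Figure D2:**
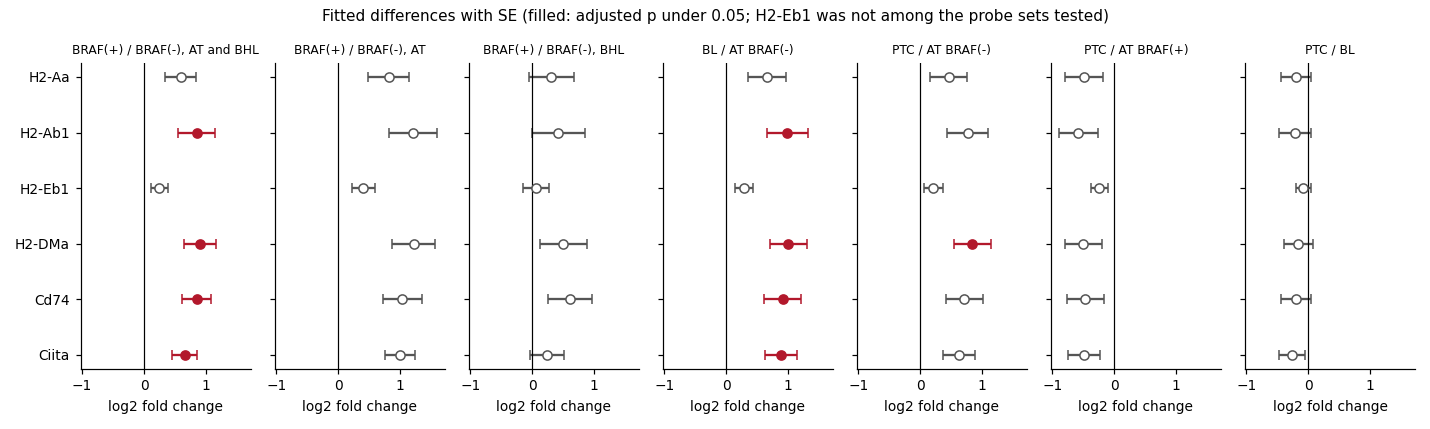
Fitted log2 fold changes (x axis) with SE of the 6 class II genes (y axis) in 7 comparisons, the first-named group over the second. Filled symbols passed an adjusted p of 0.05: 4 genes for BRAF status, 4 in BL over BRAF(-) AT and 1 in PTC over BRAF(-) AT, while the estimates of PTC over BRAF(+) AT and over BL all lie below 0.

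Borderline lesions and carcinomas were each compared with *BRAF*(-) AT in a model of all 38 mice with sex, and both comparisons share the same 5 *BRAF*(-) AT. In BL, 4 class II genes were called higher, where 24.3% of all probe sets were called higher. *H2-DMa* had a lowest, median and highest value of 8.10, 8.66 and 9.48 in BL, against 7.07 to 8.76 in *BRAF*(-) AT (log2 fold change 1.0, SE 0.31, adjusted p = 0.0129). *Ciita* had 6.22, 7.00 and 8.16 in BL, against 5.97 to 6.65 in *BRAF*(-) AT (log2 fold change 0.88, SE 0.27, adjusted p = 0.0133). For this gene 9 of 10 BL lay above all *BRAF*(-) AT, and the share of all probe sets that reach this was not counted. *H2-Ab1* had 8.84, 9.57 and 10.44 in BL, against 7.51 to 9.80 in *BRAF*(-) AT (log2 fold change 0.99, SE 0.33, adjusted p = 0.0215). *Cd74* averaged 11.22 ± 0.43 in BL and 10.30 ± 0.65 in *BRAF*(-) AT (log2 fold change 0.91, SE 0.30, adjusted p = 0.0219). *H2-Aa* did not pass (0.66, SE 0.31, adjusted p = 0.0915). The count fell to 2 without the BL of M_772, the highest BL in all 6 genes, or without the *BRAF*(-) AT of M_956, and to 1 without that of M_771. None was called in females alone, or with the B cell, the macrophage, or the muscle and adipocyte markers as covariates.

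In PTC, 1 class II gene was called higher than in *BRAF*(-) AT, *H2-DMa*, where 28.8% of all probe sets were called higher. It had 7.78, 8.60 and 9.23 as its lowest, median and highest value in PTC, against 7.07 to 8.76 in *BRAF*(-) AT (log2 fold change 0.84, SE 0.31, adjusted p = 0.0277). The log2 fold changes of the other tested genes were 0.77 for *H2-Ab1* (adjusted p = 0.0592), 0.71 for *Cd74* (adjusted p = 0.0611), 0.62 for *Ciita* (adjusted p = 0.0663) and 0.46 for *H2-Aa* (adjusted p = 0.235). Within PTC, M_347, M_686, M_700 and M_884 were the 4 highest for all 6 genes but *H2-DMa*, and M_358 and M_1002 were the lowest pair for all 6 genes but *Ciita*. M_686, M_700 and M_884, at 6 to 7 months, were the youngest PTC mice, while M_347 was 12 months old. The paper gives its youngest PTC mice as line tg2 and the older ones as tg3. Age and line thus cannot be told apart within PTC. Leaving out single mice gave counts between 0 (without M_524, M_686, M_771 or M_956) and 4 (without M_358), with 2 without M_364 or M_957 and 3 without M_940 or M_1002. The count was 0 in females alone and with the macrophage, or the muscle and adipocyte markers as covariates.

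Among *BRAF*(+) thyroids, no class II gene was called between PTC and BL or between PTC and AT. Between PTC and BL the log2 differences were -0.08 to -0.26, and none was called in either direction (0% of probe sets called higher, none lower, 150 at an unadjusted p under 0.05). Between PTC and *BRAF*(+) AT they were -0.58 for *H2-Ab1* (SE 0.33, adjusted p = 0.169), -0.50 for *H2-DMa*, -0.49 for *H2-Aa* and for *Ciita*, -0.47 for *Cd74* and -0.24 for *H2-Eb1*, with 5.83% of probe sets called lower and 22.6% called higher in PTC. All 6 estimates were below 0, and the 5 tested had adjusted p of 0.159 to 0.228. With the macrophage markers as a covariate, 5 were called lower in PTC. The share of all probe sets called lower in that fit was not counted. Without *BRAF*V600E, BHL and AT had log2 differences of 0.00 to 0.30 (0% of probe sets called higher, 139 at an unadjusted p under 0.05), and without M_946 the difference was below 0 for all of them but *H2-DMa*.

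Few other genes of the class II pathway were called for *BRAF* status. Of the other chains, *H2-Ea*, the E alpha chain, averaged 7.02 ± 0.65 in *BRAF*(+) and 6.47 ± 0.53 in *BRAF*(-) non-malignant thyroids (SD, n = 9 each, log2 fold change 0.50, adjusted p = 0.205), and it was called higher in BL than in *BRAF*(-) AT (0.95, SE 0.32, adjusted p = 0.0231). *H2-Eb2* was not among the probe sets tested. *H2-Oa* and *H2-Ob*, the chains of the DO molecule that restrains DM, had log2 fold changes of 0.15 (adjusted p = 0.737) and 0.27 for *BRAF* status, and *H2-Ob* was not among the probe sets tested. Of 6 endosomal enzymes that prepare peptides, 2 were tested and 1 was called higher for *BRAF* status: *Ctss*, cathepsin S, which trims the invariant chain, averaged 8.85 ± 0.72 in *BRAF*(+) and 7.86 ± 0.82 in *BRAF*(-) thyroids (log2 fold change 0.91, SE 0.32, adjusted p = 0.0448, with 11.8% of probe sets called higher). Without the filter on flat probe sets it was not called (adjusted p = 0.124). *Ctss* was called higher in PTC (1.28, adjusted p = 0.002) and in BL (1.18, adjusted p = 0.00636) than in *BRAF*(-) AT. *Ifi30*, the thiol reductase of the endosome, was called higher in BL than in *BRAF*(-) AT (0.76, adjusted p = 0.0211), with 0.58 for *BRAF* status (adjusted p = 0.0754) and 0.52 in PTC (adjusted p = 0.0975).

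None of the 7 promoter factors that hold *Ciita* at the X and Y boxes (*Rfx5*, *Rfxap*, *Rfxank*, *Nfya*, *Nfyb*, *Nfyc* and *Creb1*) passed the filter, and their log2 fold changes for *BRAF* status lay between -0.12 and 0.17. Of the 9 class I genes measured, 1 passed the filter and none was called, with a median of 0.05. Of 17 genes of the interferon gamma axis measured, 5 passed the filter. *Iigp1*, an interferon-inducible GTPase, averaged 8.13 ± 0.98 in *BRAF*(+) and 6.23 ± 0.66 in *BRAF*(-) thyroids and was called higher (1.86, adjusted p = 6.2e-04). *Cxcl11*, a chemokine, averaged 6.46 ± 0.38 in *BRAF*(+) and 7.27 ± 0.28 in *BRAF*(-) thyroids and was called lower (-0.80, adjusted p = 0.00503). *Ifng* itself averaged 5.04 ± 0.22 and 5.03 ± 0.21 in these groups and did not pass the filter. Among the costimulators, *Cd80* and *Cd86*, which give the second signal to T cells, were not called for *BRAF* status (0.60, adjusted p = 0.0648, and 0.46, adjusted p = 0.278), but were called higher in PTC (1.13, adjusted p = 3.93e-04, and 1.02, adjusted p = 0.00977) and in BL (1.09, adjusted p = 0.00105, and 0.96, adjusted p = 0.019) than in *BRAF*(-) AT.

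**Figure D3:**
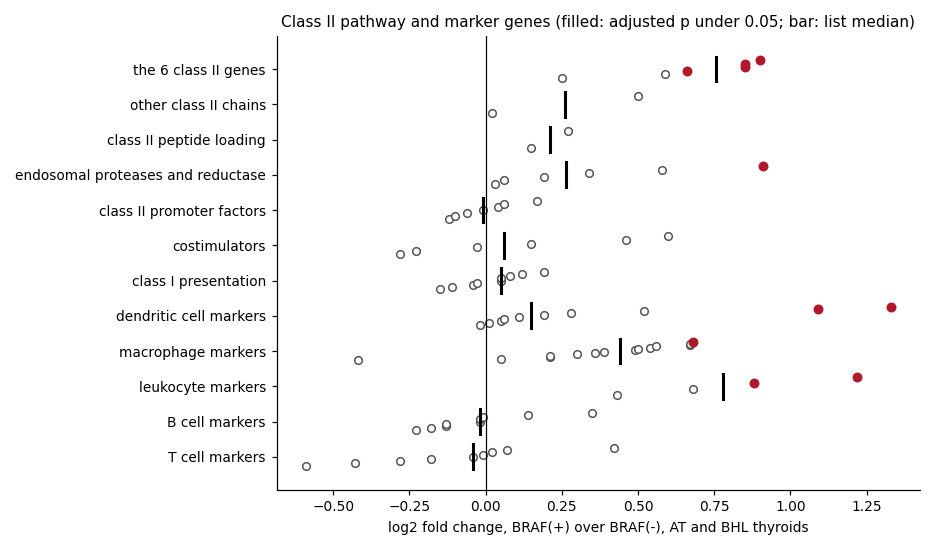
Log2 fold change of BRAF(+) over BRAF(-) non-malignant thyroids (x axis), 1 point a gene, for the 6 class II genes and 11 lists of pathway and marker genes (y axis), with the median of each list as a bar. Filled points passed an adjusted p of 0.05. The median of the 6 genes is 0.76, that of the promoter factors -0.01 and that of the class I genes 0.05.

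Markers of other cells were read beside the class II genes, with 11.8% of probe sets called higher for *BRAF* status. Of 4 leukocyte markers, all tested, 2 were called higher, the tetraspanin *Cd53* (1.22, adjusted p = 0.00954) and the lysosomal *Laptm5* (0.88, adjusted p = 0.033). Of 10 dendritic cell markers, 6 were tested and 2 called higher, the integrin *Itgax* (1.09, adjusted p = 0.00974) and the lectin *Cd209a* (1.33, adjusted p = 0.00492), while *Zbtb46*, *Xcr1* and *Clec9a* lay at -0.02 to 0.11. Of 14 macrophage markers, 7 were tested and 1 was called higher, the Fc receptor *Fcgr3* (0.68, adjusted p = 0.0432), a share near that of all probe sets, and the list had a median of 0.44. Without the filter, *Laptm5* (adjusted p = 0.0858) and *Fcgr3* (adjusted p = 0.0771) were not called. Without M_946, 3 leukocyte, 2 dendritic cell and 3 macrophage markers were called higher, among them *Ptprc*, *Mrc1* and *Tyrobp*, named after their values were seen. The share of all probe sets called in the fit without M_946 was not counted. In PTC over *BRAF*(-) AT, 5 of the 7 macrophage markers tested were called higher (*Adgre1*, *Cd68*, *Mrc1*, *Fcgr3* and *Tyrobp*), with 28.8% of probe sets called higher. The mean of the macrophage list lay at 7.84 to 8.80 in PTC, against 7.43 to 8.34 in *BRAF*(-) AT. That mean lay at 8.24 to 8.78 in BL, 8.21 to 8.75 in *BRAF*(+) BHL, 7.77 to 8.99 in *BRAF*(+) AT and 7.44 to 8.72 in *BRAF*(-) BHL. No B cell, T cell or plasma cell marker was called for *BRAF* status over both lesion types. The median of the T cell list was -0.04, and 0.40 without M_946, with 1 marker called higher (*Cd2*, an adhesion receptor). That of the B cell list was -0.02, and 0.10 without M_946. Of the plasma cell markers, *Sdc1* (0.93 and 0.78) and *Jchain* (2.17 and 3.14) were called higher in PTC and in BL than in *BRAF*(-) AT. Of 2 B cell markers tested, 1 was called higher in each. These comparisons had 28.8% and 24.3% of probe sets called higher. For *BRAF* status in AT, 1 of 4 plasma cell markers tested was called higher (2.73% of probe sets), and none without the filter. *Jchain* averaged 9.13 ± 1.26 in *BRAF*(+) AT and 5.58 ± 0.78 in *BRAF*(-) AT (SD, n = 5 each). In BHL its means ran the other way, with 6.19 ± 1.88 in *BRAF*(+) and 7.86 ± 2.26 in *BRAF*(-) thyroids (SD, n = 4 each). With the macrophage mean as a covariate, no class II gene was called for *BRAF* status, with log2 fold changes of 0.02 to 0.40, and the estimates of PTC over *BRAF*(-) AT were -0.02 to -0.38. Of 7 adipocyte markers, all tested, 6 were called lower in *BRAF*(+) thyroids, with 8.34% of probe sets called lower, and 4 without M_946. The medians with all 18 mice were -0.81 for this list and -1.10 for 12 skeletal muscle markers. With the means of both lists as covariates, the fold changes for *BRAF* status were instead larger, from 0.82 for *H2-Eb1* to 2.15 for *H2-Ab1*. The part of these cells in the class II signal was not tested.

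From mouse to mouse, the 6 class II genes varied together. After the mean of each group was taken off, the 15 pairs had Pearson's r from 0.71 (*Ciita* with *H2-Eb1*) to 0.97 (*H2-Ab1* with *Cd74*) over 38 mice, and Spearman's rho from 0.73 to 0.96. The permutation p of every pair was 1e-05, the smallest that 100000 permutations can give, also after adjustment over the 15 pairs. Without the 2 mice farthest from the median on the x axis, r was 0.67 to 0.96. *Ciita* had r = 0.85 with *H2-Aa* (rho 0.89), 0.83 with *Cd74* (rho 0.86), 0.78 with *H2-Ab1* (rho 0.84) and 0.76 with *H2-DMa* (rho 0.77). Pooled over all mice without that step, the pairs had r from 0.77 to 0.97 and rho from 0.78 to 0.96.

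The same was done for the mean of 6 marker lists against each class II gene, 36 relations in all. After group means were taken off, r was 0.78 to 0.89 for leukocyte markers (rho 0.77 to 0.89), 0.72 to 0.90 for dendritic cell markers (rho 0.76 to 0.92), 0.60 to 0.84 for macrophage markers (rho 0.59 to 0.85), 0.54 to 0.80 for plasma cell markers (rho 0.53 to 0.77), 0.57 to 0.64 for T cell markers (rho 0.67 to 0.77) and 0.33 to 0.44 for B cell markers (rho 0.30 to 0.42). All but the B cell relations had an adjusted permutation p of at most 0.0012, and for B cell markers the adjusted p of r ran from 0.014 to 0.065. Without the 2 mice farthest out on the x axis, r was 0.79 to 0.88 for leukocyte, 0.71 to 0.89 for dendritic cell, 0.57 to 0.82 for macrophage and 0.26 to 0.41 for B cell markers. *Ciita* had its highest r with the dendritic cell markers (0.90, rho 0.92), and *H2-DMa* had 0.84 with the macrophage and 0.83 with the leukocyte markers. Both values of a point come from the same array, and differences between these r were not tested.

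**Figure D4:**
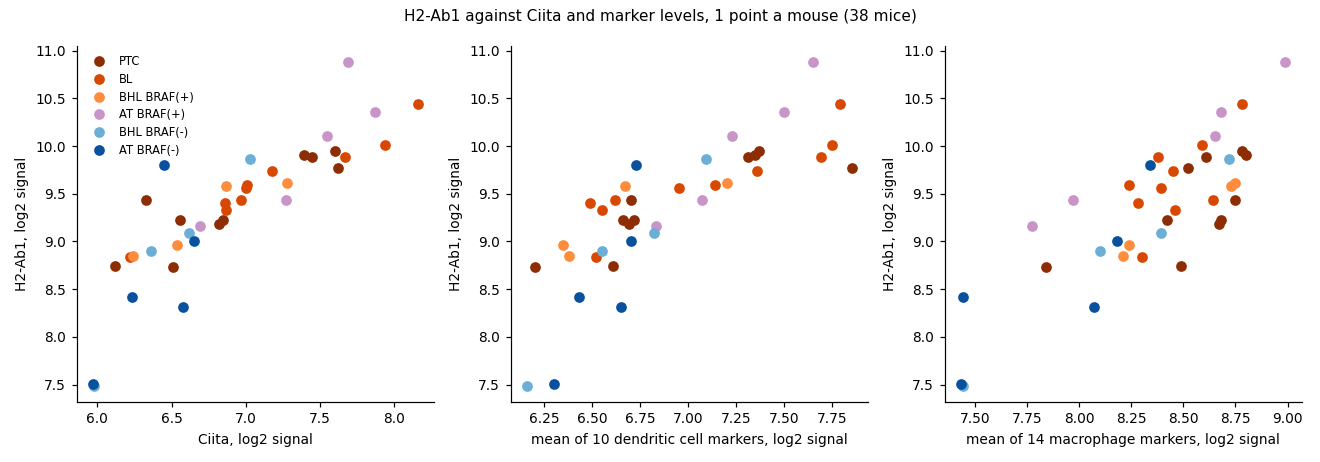
Log2 signal of H2-Ab1 (y axis) in 38 mice against Ciita, the mean of 10 dendritic cell markers and the mean of 14 macrophage markers (x axes, log2 signal), coloured by group. All 3 relations run upward over the 38 mice, and the lowest BRAF(-) mice are low on every axis.

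The 8 other genes most like the mean of the 6 class II genes over the 38 mice, by Pearson's r after group means were taken off, were *Cd52* (0.964), *Pld4* (0.943), *Selplg* (0.942), *Coro1a* (0.935), *Tlr9* (0.927), *Alox5ap* (0.914), *Unc93b1* (0.913) and *H2-Ea* (0.912). *Cd52* and *Coro1a* are genes of leukocytes at large, *Selplg* encodes the P-selectin ligand of leukocytes, *Tlr9* the endosomal receptor for DNA, and *Unc93b1* the escort of such receptors. *H2-Ea* is itself a class II chain. *Cd52* averaged 7.97 ± 0.80 in PTC, 8.28 ± 0.76 in BL, 7.59 ± 0.76 in *BRAF*(+) BHL, 8.62 ± 0.91 in *BRAF*(+) AT, 7.76 ± 1.11 in *BRAF*(-) BHL and 7.03 ± 1.07 in *BRAF*(-) AT. Like the class II genes it was highest in *BRAF*(+) AT and lowest in *BRAF*(-) AT. Each class II gene was also set against the mean of the other 5, with r of 0.964 for *H2-Aa*, 0.961 for *H2-Ab1* and for *Cd74*, 0.928 for *H2-DMa*, 0.828 for *Ciita* and 0.805 for *H2-Eb1*.

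By their estimates, all 6 class II genes were higher in males than in females in *BRAF*(+) thyroids and lower in males in *BRAF*(-) thyroids. Most of these differences were not called, and the comparison was made after the values had been seen. The 3 *BRAF*(-) males had *H2-Aa* at 8.55, 8.66 and 9.47, against 9.68 to 10.61 in the 6 *BRAF*(-) females, so that these groups did not overlap. All *BRAF*(-) males lay below all *BRAF*(-) females in 7.06% of the probe sets tested. The 6 *BRAF*(+) males had it at 10.22 to 11.04, against 9.40 to 11.42 in the 23 *BRAF*(+) females. For *Ciita*, *BRAF*(-) males lay at 5.97 to 6.23 and *BRAF*(-) females at 6.36 to 7.03, while *BRAF*(+) males lay at 7.27 to 8.16 and *BRAF*(+) females at 6.12 to 7.87. *Ciita* was called higher in *BRAF*(+) males than in *BRAF*(+) females (0.69, SE 0.18, adjusted p = 0.0154), where 6.15% of probe sets were called higher. The males M_772 and M_958, at 4 months, and M_700, at 6 months, were the youngest *BRAF*(+) mice, so sex and age were not separated here. No class II gene was called between sexes in *BRAF*(-) thyroids (*H2-Aa* -1.25, SE 0.31, adjusted p = 0.0516), where 0.365% of probe sets were called lower in males.

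The sex difference in *BRAF*(+) minus that in *BRAF*(-) was called for 3 class II genes, *H2-Aa*, *H2-Ab1* and *Cd74*, where 1.37% of probe sets were called higher. With age as a covariate, as 1 slope for all mice, 3 were called as well. In a fit without sex that gave each *BRAF* status its own slope, these 3 genes each had -0.05 per month in *BRAF*(+) thyroids. In *BRAF*(-) thyroids they had 0.08 for *H2-Aa* and *H2-Ab1* and 0.07 for *Cd74*, and none of these slopes was called. A shared slope cannot take up age effects of opposite direction, so the part of age in the sex difference was not tested. The *BRAF*(-) males were few, and 2 of them, at 4 and 6 months, were the youngest *BRAF*(-) mice. The macrophage markers of the 3 *BRAF*(-) males averaged 7.43 to 7.44, against 8.07 to 8.72 in *BRAF*(-) females, and their leukocyte markers 6.93 to 7.05, against 7.65 to 9.80. The macrophage mean lay at 7.97 to 8.80 in *BRAF*(+) males and at 7.77 to 8.99 in *BRAF*(+) females. With that mean as a covariate none was called, and the differences were 0.66 for *H2-Aa*, 0.48 for *H2-Ab1* and 0.37 for *Cd74*. Without *BRAF*(-) males under 10 months, no class II gene was called for *BRAF* status in non-malignant thyroids, with log2 fold changes of 0.21 to 0.81.

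**Figure D5:**
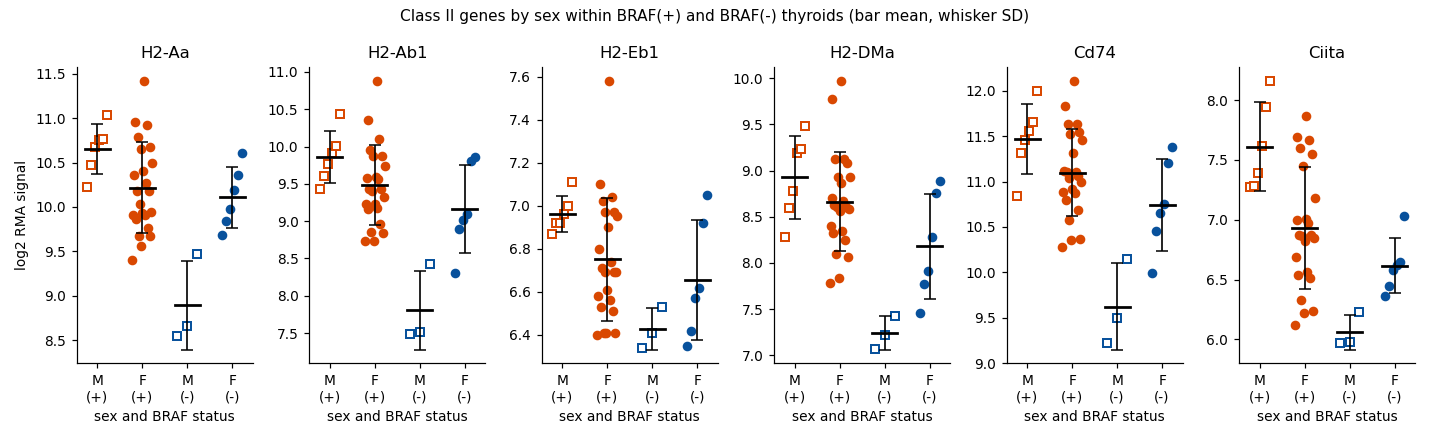
Log2 RMA signal of the 6 class II genes (y axis) by sex within BRAF(+) and BRAF(-) thyroids (x axis, M male and F female), 1 point a mouse, with the mean as a bar and the SD as a whisker. The 3 BRAF(-) males are the lowest of the 4 sets for H2-Aa, at 8.55 to 9.47.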

How the data were processed

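The arrays were GeneChip Mouse Gene 1.0 ST, and the authors deposited log2 signals after RMA, which normalizes between arrays, for 35556 probe sets. The sources used here do not name the RMA version. The labels name an amplification kit made for 3' arrays. Symbols came from the platform annotation: 21789 probe sets had 1 symbol, 1621 several and 12146 none listed. Genes without a single-symbol probe set, *H2-DMb1*, *H2-DMb2*, *H2-K1* and *H2-D1* among them, were not analysed here. Levels of different probe sets are not comparable.

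Fits used limma 3.58.1 in R 4.3.3 (lmFit, eBayes) with Benjamini-Hochberg adjustment over 4388 probe sets past the methods' flat filter: lesion, *BRAF* status and sex over 18 mice, or 6 groups and sex over 38. Fold changes are the first-named group over the second. Correlations used numpy 2.4.6 and scipy, with two-sided permutation. The fits were tested on simulated data. Mice of 1 group were taken as separate animals, and their number limits the precision.

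Named genes were the 6 genes, up to 4 genes of each list by the size of the moderated statistic and those a small count rests on, and the 8 most alike. The genes, lists and rules were chosen with earlier results of these data known, and the sex comparison after the values were seen. Alternatives were other filters, centring, variance models, weights, covariates, females only, and leaving out mice.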

Additional observations from a re-analysis of the deposited data

Results flagged for a closer look

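The sex difference (male minus female) in *BRAF*(+) thyroids exceeded that in *BRAF*(-) thyroids by 1.70 on the log2 scale for *H2-Aa* (SE 0.36, adjusted p = 0.0302), by 1.75 for *H2-Ab1* (SE 0.41, adjusted p = 0.0302) and by 1.5 for *Cd74* (SE 0.39, adjusted p = 0.0452), by a limma interaction term over 38 mice. For *H2-Aa*, *BRAF*(+) males averaged 10.65 ± 0.28 (SD, n = 6) and *BRAF*(+) females 10.21 ± 0.51 (n = 23), and *BRAF*(-) males averaged 8.89 ± 0.50 (n = 3) and *BRAF*(-) females 10.11 ± 0.34 (n = 6). The same term was 1.24 for *Ciita* (adjusted p = 0.0645), 1.18 for *H2-DMa* (adjusted p = 0.16) and 0.44 for *H2-Eb1*, which was not among the probe sets tested. The count of 3 became 0 without any 1 of the males M_80, M_524, M_700, M_701 or M_771, 1 without M_686, M_772 or the female M_946, 2 without M_958 and 5 without M_523. The comparison was chosen after the values had been seen, and sex, age and the level of macrophage markers move together among the *BRAF*(-) mice. The youngest *BRAF*(+) mice were males as well. No mouse stood apart from its group by the gap test in any of the 36 sets of values checked.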

How the results depend on the processing

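Counts are of class II genes called. The shares of all probe sets called under the alternatives are not given, so these counts have no such share beside them. For *BRAF* status (4), centring arrays gave 2, no filter 1, and females only, the macrophage covariate or no *BRAF*(-) males under 10 months 0 each, with 0 to 4 when single mice were left out. In AT (0), array weights gave 4, muscle and adipocyte covariates 5, no covariates 1, and single mice left out 0 to 4. For PTC over *BRAF*(-) AT (1), array weights gave 3, no covariates 2, and females only, the macrophage covariate, the muscle and adipocyte covariates or no young males 0, with 0 to 4 over single mice. For BL over *BRAF*(-) AT (4), the B cell, macrophage, or muscle and adipocyte covariates and females only gave 0, with 1 to 4 over single mice. For PTC over *BRAF*(+) AT (0), array weights gave 1 and the macrophage covariate 5. For the sex difference (3), the macrophage or B cell covariate or no filter gave 0, with 0 to 5 over mice left out. Of the called values, 1 turned its direction, *H2-DMa* in PTC over *BRAF*(-) AT with the macrophage covariate, and the others that turned were not called. In BHL, *Ciita*, *H2-Aa*, *H2-Ab1* and *H2-Eb1* had -0.12, -0.23, -0.15 and -0.09 in females, and -0.08, -0.12, -0.07 and -0.14 with the macrophage covariate, and *H2-Aa* and *H2-Eb1* had -0.02 each without young males. Over single mice, *Ciita* had -0.06 to 0.42, *H2-Aa* -0.10 to 0.56 and *H2-Eb1* -0.06 to 0.20 there. The difference between BHL and AT was 0.05 for *Cd74* and *H2-Aa* with muscle and adipocyte covariates. With the macrophage covariate, PTC over *BRAF*(-) AT was -0.12 for *Cd74*, -0.02 for *Ciita*, -0.38 for *H2-Aa*, -0.18 for *H2-Ab1*, -0.04 for *H2-DMa* and -0.14 for *H2-Eb1*, BL over *BRAF*(-) AT was -0.04 for *H2-Aa*, and the sex difference was -0.20 for *H2-DMa* and -0.12 for *H2-Eb1*. In females PTC over *BRAF*(-) AT was -0.10 for *H2-Aa*. For BHL over AT among *BRAF*(-), the macrophage covariate gave -0.18 for *Cd74*, -0.08 for *Ciita*, -0.16 for *H2-Ab1*, and -0.04 for *H2-DMa* and *H2-Eb1*, and the B cell covariate -0.07 for *Cd74*, -0.05 for *Ciita*, and -0.02 for *H2-Ab1* and *H2-Eb1*. Over single mice these were -0.16 to 0.62 for *Cd74*, -0.03 to 0.48 for *Ciita*, -0.12 to 0.71 for *H2-Ab1* and -0.05 to 0.21 for *H2-Eb1*. The cause of these changes was not tested. The next probe set of a gene was not run, since each gene had 1. No paired analysis was possible because mouse numbers are not shared between groups.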
